A study of Mus musculus with 2 samples.

Results

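The Mir29 family of mouse microRNA genes was examined in the midbrain of embryos at day 12.5, in 2 small RNA libraries. Its 4 members, Mir29a, Mir29b-1, Mir29b-2 and Mir29c, were taken by gene symbol from the 1973 genes in the count tables. All 4 were found in both libraries. Both libraries came from midbrain of healthy B6NCrl embryos with the sexes mixed, replicate 1 from a pool of 120 embryos and replicate 2 from a pool of 88. The RNA size range was below 30 nucleotides. No treatment, other age or other tissue is in the design. The members are therefore compared with each other, by genomic cluster and between the 2 libraries. In bulk tissue, fewer cells that make a microRNA and less of it per cell cannot be told apart.

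MicroRNAs are cut from hairpin precursors and pair with messenger RNAs mainly through the seed, a short stretch near their 5′ end. The miR-29 microRNAs are known for repressing messages of the extracellular matrix, collagens above all, and of the de novo DNA methyltransferases Dnmt3a and Dnmt3b. In the brain they are known to be scarce in the embryo and to increase after birth as neurons mature, where they limit pro-apoptotic BH3-only proteins. None of these targets was measured here.

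Each Mir29 hairpin has an annotated 3p and 5p arm, and the 3p arms define the family. They are shown with the seed, bases 2 to 8, in capitals, because the seed is common to all 4 genes while single bases outside it decide whether a read can be assigned to 1 gene.
miR-29a-3p: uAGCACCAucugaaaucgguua
miR-29b-3p: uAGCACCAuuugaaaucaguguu
miR-29c-3p: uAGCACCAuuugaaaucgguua

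The sequences are from RefSeq on GRCm38.p6. Of the 1058 genes with a mature entry in that table, only these 4 carried the seed AGCACCA. Counted from the 5′ end, miR-29a-3p and miR-29c-3p differ by the single substitution C10U, miR-29a being the first. Against miR-29c-3p, miR-29b-3p differs over the 22 positions compared by A18G, G21U and U22A, miR-29b being the first. miR-29b-3p is 23 bases long and is the same sequence in Mir29b-1 and Mir29b-2. Its 3′ end, AGUGUU, is known as a signal for import into the nucleus.

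The 5p arms, the usual passenger strands, have no seed in common and are shown in the same way because they are where the 2 Mir29b genes can be told apart.
miR-29a-5p: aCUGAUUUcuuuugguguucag
miR-29b-1-5p: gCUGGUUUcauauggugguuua
miR-29b-2-5p: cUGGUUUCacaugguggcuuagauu
miR-29c-5p: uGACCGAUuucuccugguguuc

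The files count reads per hairpin gene and do not separate the arms. Reads that aligned to several places were 33.4% of all reads in each library, and the files list them in a row of their own that names no gene. The hairpins of Mir29b-1 and Mir29b-2 share an unbroken run of 25 bases that contains the whole of miR-29b-3p.
shared run of Mir29b-1 and Mir29b-2: ucuagcaccauuugaaaucaguguu
Mir29b-1 and Mir29c share a run of 22 bases, Mir29b-2 and Mir29c one of 19, and Mir29a shares at most 14 with any other member, Mir29c. Among all windows of 20 bases in a hairpin, 9 of 52 in Mir29b-1, 6 of 62 in Mir29b-2 and 3 of 69 in Mir29c also occur in another hairpin of the table, and 0 of 69 in Mir29a.

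Mir29b-1 and Mir29a form the cluster on the minus strand of chromosome 6. On mm10, Mir29a (ENSMUSG00000065610) lies at chr6:31062660-31062747 and Mir29b-1 (ENSMUSG00000065604) at chr6:31063023-31063093, with 275 bases between them. Mir29a overlaps no other annotated gene, and Mir29b-1 shares its outermost 2 bases with an exon of the non-coding gene Gm27019. The 2 hairpins are given with both mature arms in capitals, to show how they are laid out.
Mir29a: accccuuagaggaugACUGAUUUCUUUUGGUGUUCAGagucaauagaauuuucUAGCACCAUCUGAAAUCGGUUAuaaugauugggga
Mir29b-1: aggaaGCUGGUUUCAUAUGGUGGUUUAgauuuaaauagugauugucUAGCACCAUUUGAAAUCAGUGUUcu

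Mir29b-2 and Mir29c form the cluster on the plus strand of chromosome 1, at chr1:195037040-195037120 (ENSMUSG00000065412) and chr1:195037547-195037634 (ENSMUSG00000065548), with 426 bases between them. Both lie in an exon of a retained-intron transcript of the non-coding host gene A330023F24Rik. On the opposite strand they also lie in a UTR of Cd46, which encodes a complement-regulating membrane protein. In each cluster the Mir29b hairpin comes first in the direction of transcription. The identifiers of both Mir29b genes carry an older version number in the count tables (1 and 2) than in the annotation used for positions (2 and 3), so the boundaries the authors counted over may differ from those given. The version numbers of Mir29a and Mir29c are the same in both.

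**Figure D1:**
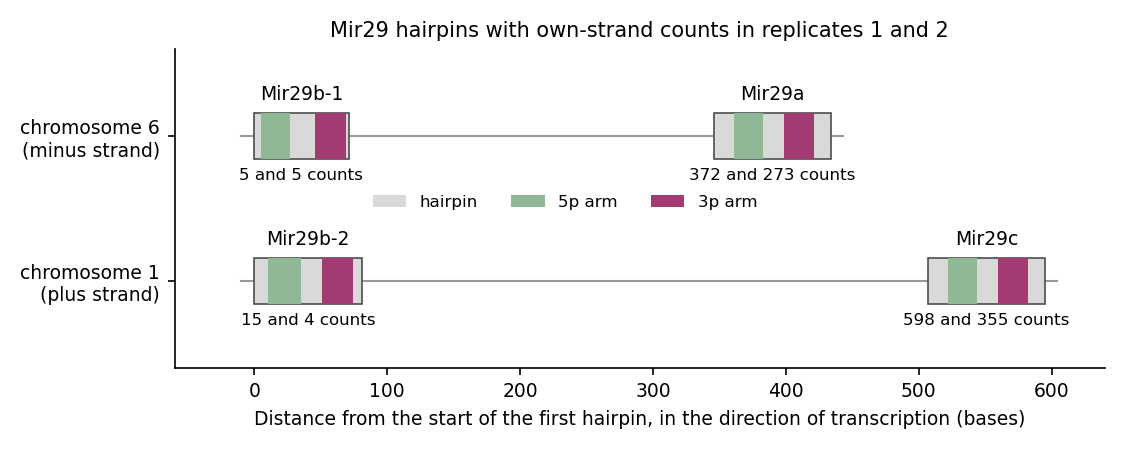
Map of the 2 Mir29 clusters, with distance in bases from the start of the first hairpin on the x axis and 1 row per cluster; grey boxes are hairpins and coloured boxes the annotated arms. The counts under each hairpin, replicate 1 then replicate 2, are high for the second hairpin of each cluster (372 and 273 for Mir29a, 598 and 355 for Mir29c) and low for the first.

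The libraries held 4629302 and 2805487 counts on the own strand of a gene, and CPM below is counts per 1000000 of these. A small RNA gives 1 read whatever its length and the annotated arms are 22 to 25 bases long, so levels are given per gene without division by length. Whether the different sequences were captured equally was not tested. The limit that a count of 0 allows, 3 counts, is 0.648 CPM for replicate 1 and 1.07 CPM for replicate 2. Intervals are exact Clopper-Pearson 95% intervals and, like the floors, cover counting error only. Of 12 listed neural microRNA genes 11 were found by symbol, and all 11 had counts in both libraries. They were led by Mir137 at 3894 ± 467.3 CPM and Mir153 at 3399 ± 159 CPM (SD, n = 2). Mir9-2, Mir124a-1 and Mir124a-3 of the same list had means of 3.80, 3.56 and 5.37 CPM. Presence in both libraries does not check the tissue label. It was also seen for all found genes of the choroid plexus (5), epithelial (7) and mesenchymal and mural (7) lists. Among all 1973 genes, 643 had counts in both libraries.

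The Mir29 family was a small part of the counts assigned to genes in E12.5 midbrain, and nearly all of its assigned counts came from Mir29c and Mir29a. The 4 genes summed to 990 counts in replicate 1 and 637 in replicate 2, which is 214 CPM (interval 201 to 228) and 227 CPM (210 to 245), or 220.5 ± 9.33 CPM (SD, n = 2). That is 0.0214% and 0.0227% of the assigned counts. Mir29a and Mir29c together supplied 98.0% of the family's counts in replicate 1 (96.9 to 98.8%) and 98.6% in replicate 2 (97.3 to 99.4%).

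Mir29c was the highest member. It had 598 counts, 129 CPM (119 to 140), in replicate 1 and 355 counts, 127 CPM (114 to 140), in replicate 2, a mean of 128 ± 1.87 CPM (SD, n = 2). The libraries thus lay within each other's counting intervals. Mir29a followed with 372 counts, 80.4 CPM (72.4 to 89.0), in replicate 1 and 273 counts, 97.3 CPM (86.1 to 109.6), in replicate 2, a mean of 88.8 ± 11.99 CPM (SD, n = 2). Mir29a was lower than Mir29c in both libraries, and the ranges of the 2 genes did not overlap.

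By count, Mir29c ranked 202 of the 716 genes with a count in replicate 1 and 205 of 673 in replicate 2. Mir29a ranked 232 and 221. Among the 380 genes with at least 10 counts in both libraries, called quantified here, 202 had a higher mean CPM than Mir29c and 226 a higher one than Mir29a. The median of the quantified genes was 147.7 CPM, and both genes lay below it.

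**Figure D2:**
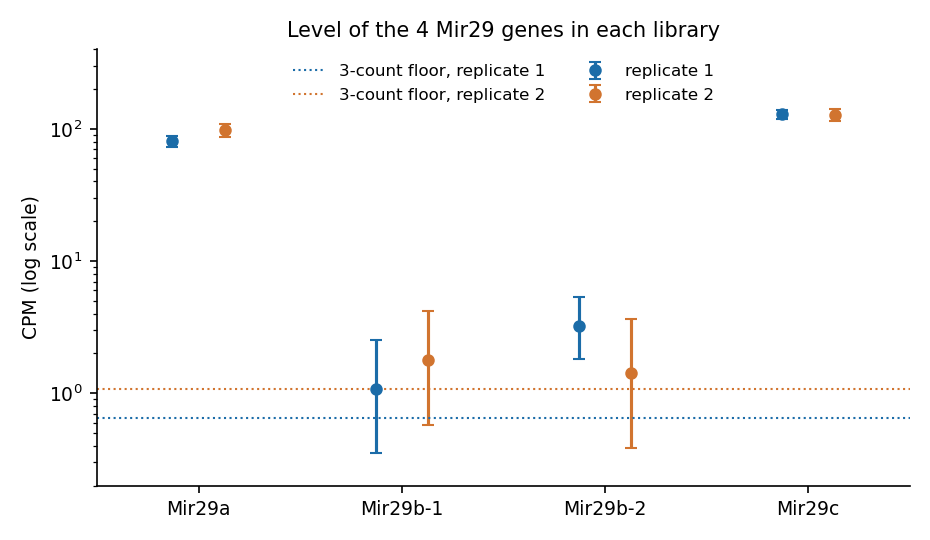
Level of each Mir29 gene in CPM (log axis) in replicate 1 and replicate 2; bars are exact 95% counting intervals and dotted lines the 3-count floor of each library. Mir29c and Mir29a lie between 80.4 and 129 CPM in both libraries, while the 2 Mir29b genes lie at 3.24 CPM or less.

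The 2 Mir29b genes were barely counted. Mir29b-1 had 5 counts in each library, 1.08 CPM (0.351 to 2.52) and 1.78 CPM (0.579 to 4.16). Mir29b-2 had 15 counts in replicate 1, 3.24 CPM (1.81 to 5.34), and 4 in replicate 2, 1.43 CPM (0.388 to 3.65). Mir29b-1 held 25% of the pair's counts in replicate 1 (8.66 to 49.1%), below an equal share, and 55.6% in replicate 2 (21.2 to 86.3%), which includes one, so an order between them was seen in 1 of the 2 libraries. Neither gene reached 10 counts in both libraries, so 2 of the 4 members were quantified. Because reads of miR-29b-3p alone match both genes equally, these counts do not measure how much miR-29b-3p the tissue held.

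Within its cluster each Mir29b gene was far below its neighbour. On chromosome 6, Mir29a made up 98.7% of the pair's counts in replicate 1 (96.9 to 99.6%) and 98.2% in replicate 2 (95.9 to 99.4%). On chromosome 1, Mir29c made up 97.6% (96.0 to 98.6%) and 98.9% (97.2 to 99.7%). The clusters were thus alike in being represented by their second hairpin, the one with a 3p arm that no other gene encodes.

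Other microRNAs taken to be encoded at 2 or 3 places were listed for comparison. Of 53 listed genes 48 were found by symbol, 42 of them quantified, with a median level of 78.4 CPM. Of these 48, 45 had a higher mean than both Mir29b genes and 2 a lower mean than Mir29b-1, namely Mir194-1 and Mir196a-1 (both named after their values were seen). A higher mean than each Mir29b gene was also found for 100% of the 380 quantified genes. For the 42 quantified genes of the list it followed from the filter on counts. The list was led by Mir92-1 of the Mir17hg cluster, at 7224 ± 244.1 CPM, Mir181b-2 (4140 ± 1184 CPM), Mir181a-1 (3915 ± 25.6 CPM) and Mir16-1 (3263 ± 82.3 CPM; SD, n = 2). Of the listed genes, 45 were found both among the counted genes and in RefSeq, and 43 of those had a mature sequence also annotated in another gene. Mir101a was listed without a second copy. Reads that aligned to several places are listed, as said above, in a row that names no gene. The aligner settings that decide which reads fall there are not given in the sources used.

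**Figure D3:**
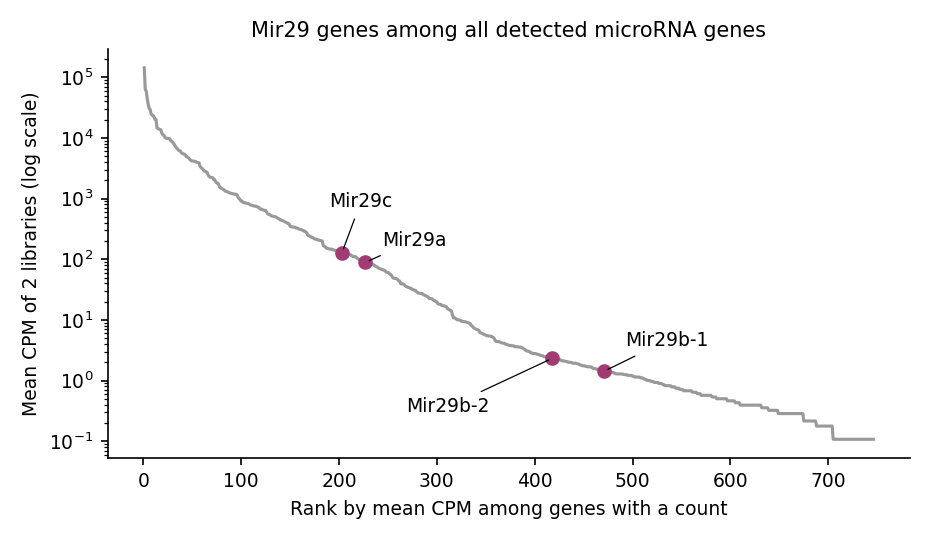
Mean CPM of the 2 libraries (log axis) against rank for the 746 genes with a count in either library; the points mark the 4 Mir29 genes. Mir29c (128 CPM) and Mir29a (88.8 CPM) lie well to the left of Mir29b-2 (2.33 CPM) and Mir29b-1 (1.43 CPM).

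The 2 genomic clusters were then set against each other, a comparison within each library from which library size drops out. The chromosome 1 cluster was higher in both libraries. It held 613 counts against 377 for the chromosome 6 cluster in replicate 1 and 359 against 278 in replicate 2, a ratio of 1.63 and 1.29. The chromosome 6 share was 38.1% (35.0 to 41.2%) in replicate 1 and 43.6% (39.7 to 47.6%) in replicate 2. Both intervals lay below an equal share.

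On the log2 scale the chromosome 6 cluster over the chromosome 1 cluster was -0.70 in replicate 1 and -0.37 in replicate 2, a mean of -0.54 ± 0.24 (SD, n = 2). Mir29a over Mir29c alone gave a mean log2 ratio of -0.53 ± 0.22 (SD, n = 2), so the comparison of the clusters is in effect that of these 2 genes. Over 2 within-library ratios an exact two-sided sign-flip permutation test cannot give a p below 0.5, so none is reported.

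Other paralogous pairs had shares of the same order or more uneven ones. Mir181a-1 with Mir181b-1 held 40.2% and 45.3% of the counts of both Mir181a and Mir181b pairs in replicates 1 and 2. That share sums opposite splits. In replicate 1, Mir181a-1 had 18038 counts against 4289 for Mir181a-2, while Mir181b-1 had 347 against 23042 for Mir181b-2. In replicate 2 the counts were 11033 against 4164 and 107 against 9265. Mir23a with Mir27a held 35.1% and 36.6% of the Mir23 and Mir27 pairs. Mir15a with Mir16-1 held 75.9% and 75.8% of the Mir15 and Mir16 pairs, and Mir30e with Mir30c-1 held 78.6% and 76.4% of the counts of Mir30e, Mir30c-1, Mir30d and Mir30b. Mir16, Mir181a, Mir181b and Mir30c are among the microRNAs listed above as encoded at several places. Reads that match their copies equally may be missing from these shares. Each mature arm of Mir29a and Mir29c is annotated in 1 gene only, so the shares may not be comparable with that of the Mir29 clusters. Whether these shares differ from that of the Mir29 clusters was not tested. These families are far more abundant: the 21 of 22 listed genes of multi-cluster families found by symbol had a median of 3263 CPM and were led by Mir30e at 29671 ± 1515 CPM, Mir30a, Mir181c and Mir23b.

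**Figure D4:**
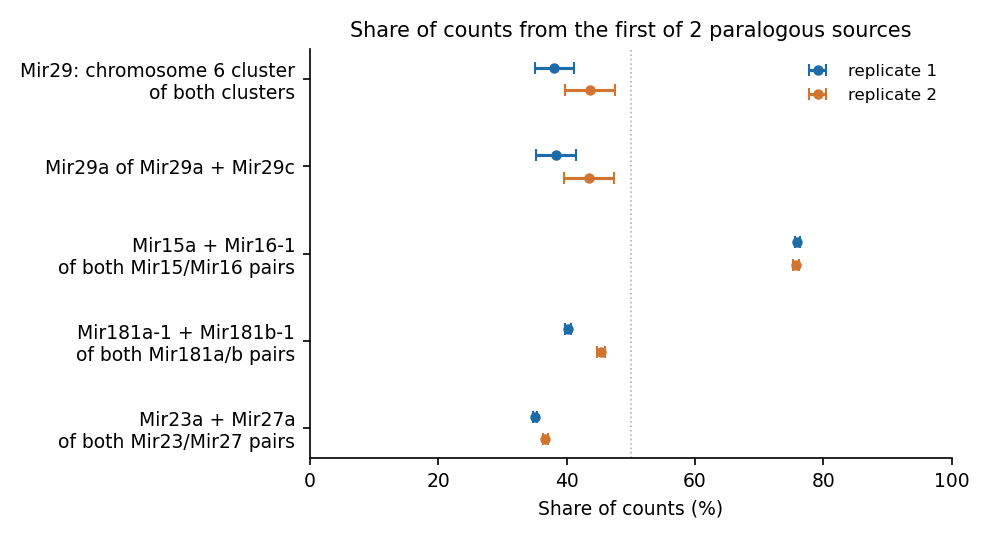
Share of counts, in percent, that came from the first of 2 paralogous sources, for the Mir29 clusters, for Mir29a against Mir29c and for 3 other families; points are libraries and bars exact 95% counting intervals. The chromosome 6 Mir29 cluster holds 38.1% and 43.6%, below the dotted line of equal shares in both libraries.

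Differences between the libraries were tested for every quantified gene by setting its count against the rest of the assigned counts (Fisher's exact test, two-sided), with Benjamini-Hochberg adjustment over the 380 genes. This sets 2 libraries against counting noise and tests no condition. Of the quantified genes, 54.2% were called different at an adjusted p under 0.05, 27.1% higher in replicate 2 and 27.1% lower. One of the 2 quantified members was called. Mir29a was higher in replicate 2, 1.21-fold, with a log2 ratio of 0.28 (exact interval 0.05 to 0.51; counting SE 0.11, adjusted p = 0.0346 by Fisher's exact test). The call was lost with DESeq2 size factors (adjusted p = 0.0706, exact test) and with no filter on low counts (adjusted p = 0.0648, exact test).

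Mir29c had a log2 ratio of -0.03 (exact interval -0.22 to 0.16; adjusted p = 0.864 by Fisher's exact test), so no difference was detectable at this depth. Differences of the size seen in Mir29a were common between these libraries: 42.4% of quantified genes had an absolute log2 ratio at least as large, and the median absolute log2 ratio was 0.24. Among the 117 quantified genes with at least 100 and under 1000 counts in replicate 1, the range that holds both members, 43.6% were called. Mir29b-1 (log2 ratio 0.72, exact interval -1.40 to 2.84) and Mir29b-2 (-1.18, -3.23 to 0.47) were too few in counts for a direction.

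By cluster, the log2 ratio of replicate 2 over replicate 1 was 0.28 (exact interval 0.05 to 0.51) for chromosome 6 and -0.05 (-0.24 to 0.14) for chromosome 1. For the family as a whole it was 0.09 (-0.06 to 0.23). The split of counts between the clusters differed between the libraries by more than counting error: the chromosome 6 cluster over the chromosome 1 cluster was higher in replicate 2 by 0.33 on the log2 scale (exact interval 0.03 to 0.63; p = 0.0261 by Fisher's exact test, two-sided). For Mir29a against Mir29c the difference was 0.31 (0.00360 to 0.608; p = 0.0420, Fisher's exact test). These 2 tests share nearly all of their counts and were added after the values were seen; the Benjamini-Hochberg adjusted p over both is 0.0420 for each by the same exact test. They set 2 libraries against counting noise only. The shares of other families given above shifted too. Counting intervals of the 2 libraries did not overlap for the Mir181, the Mir23 with Mir27 and the Mir30 shares. For the Mir181 share they were 39.8 to 40.7% in replicate 1 and 44.7 to 46.0% in replicate 2. Those of the Mir15 with Mir16 share overlapped.

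**Figure D5:**
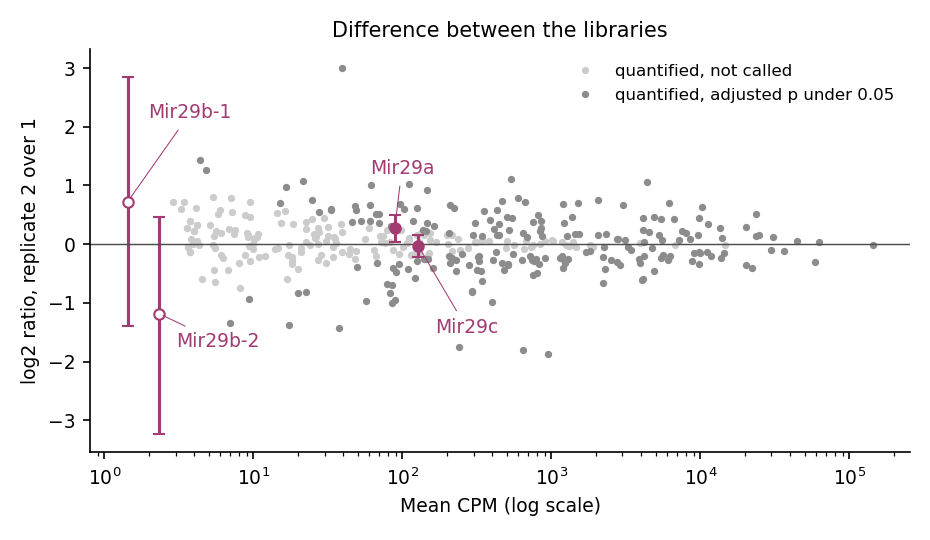
Log2 ratio of replicate 2 over replicate 1 against mean CPM (log axis); grey points are the 380 quantified genes, darker where the adjusted p was under 0.05, and coloured points the Mir29 genes with exact 95% counting intervals, open where a gene was not quantified. Mir29a (0.28) and Mir29c (-0.03) lie within the cloud of other genes of similar level.

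Other microRNAs known to increase as neural cells mature were taken as the setting for the family. Of 28 listed genes 27 were found, with a median level of 205 CPM, above Mir29c and Mir29a, and Mirlet7g (20205 ± 2811 CPM), Mirlet7i, Mir137 and Mir153 were the highest. Of the 26 that were quantified, 14 were called higher in replicate 2, 5 lower and 7 were not called, beside 27.1% called in each direction over all 380 quantified genes. The median log2 ratio was 0.22, against 0.04 over all quantified genes. The let-7 genes in this list, known for rising as progenitors differentiate, were called higher in 10 of 10 cases, with Mirlet7g at a log2 ratio of 0.28. Among the 16 other quantified genes of the list 4 were called higher, 5 lower and 7 were not called, with a median log2 ratio of -0.05.

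Markers of other cell types also differed between the pools. The miR-29 microRNAs are known to be abundant in fibroblasts, and the mesenchymal and mural list summed to 15707 CPM in replicate 1 and 23591 CPM in replicate 2. Of its 8 symbols 7 were found, 0 of them at 0 in both libraries, and 6 were called higher in replicate 2 and 1 was not called, beside the 27.1% of all quantified genes called higher. Its leading gene, Mir143 of smooth muscle and pericytes, stood at 8284 and 11351 CPM. The choroid plexus list summed to 2938 CPM in replicate 1 and 832 CPM in replicate 2, with 5 of 5 genes called lower in replicate 2, beside 27.1% of all quantified genes. Higher in replicate 2 were also 6 of 7 epithelial genes (summed level 2764 and 3549 CPM), 4 of 4 quantified genes of Hox-expressing regions (225 and 419 CPM over the 6 found, 1 of them at 0), 3 of 4 leukocyte genes (607 and 769 CPM), the endothelial Mir126a (23434 and 26243 CPM) and the liver gene Mir122 (8.64 and 69.5 CPM). The erythroid list summed to 413 and 271 CPM, with 1 of 3 genes called higher and 1 lower. The neural list summed to 11983 and 12326 CPM, with 3 of 9 quantified genes called higher and 4 lower. Between the same libraries the log2 ratio of replicate 2 over replicate 1 was 0.59 for the summed mesenchymal and mural list. It was 0.28 for Mir29a and -0.03 for Mir29c. The part of these cell types in the values of Mir29a and Mir29c was not tested.

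By level in the 2 libraries, the quantified genes nearest to Mir29c were Mir670 (129 and 126 CPM), Mir33 (133 and 129 CPM) and Mir500 (128 and 132 CPM). The nearest to Mir29a were Mir383 (79.9 and 97.0 CPM), Mir152 (75.2 and 93.0 CPM) and Mir192 (89.9 and 105.9 CPM). Likeness was the Euclidean distance over log2(CPM + 1), 0.00809 for Mir670, 0.00930 for Mir383 and 0.200 for Mir192. For Mir29b-1 the nearest were Mir3572, Mir7036b and Mir3094, and for Mir29b-2 they were Mir1943, Mir1964 and Mir7026, at distances of 0.92 to 1.21. Only quantified genes were searched and neither Mir29b gene is one, so these distances do not show that no gene had a similar level. Below the filter, Mir6946 had the same counts as Mir29b-1 and Mir653 the same as Mir29b-2. Over only 2 libraries, this likeness is mostly one of level.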

How the data were processed

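The deposited files give raw counts of reads per microRNA gene for each library. Per the deposited read-me files, they were derived from alignments to mm10 with annotation M4. Not given in the sources used here: aligner, counting program and mismatches allowed. The own-strand count column was used, and all 4 members had 0 counts on the opposite strand. Rows that name no gene held 56.9% and 58.2% of reads and stayed out of totals and tests.

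Symbols and positions came from GENCODE M21 on GRCm38, the assembly of mm10, where 1894 of 1973 identifiers were found by identifier without version, and sequences from RefSeq, where 4 of 4 members matched by symbol. Fisher's exact tests used scipy 1.17.1 and were tested on simulated counts. The simulation held counting noise and set fold changes but no other spread between libraries, so it does not cover such spread in the real libraries. Alternatives used edgeR 4.0.16 (TMM) and DESeq2 1.42.0 size factors, either-strand counts, pooled counts, no count filter and each library alone. No model with replicate spread could be fitted to the difference between the libraries, since each library is the only one of its pool. For each list the text names up to 4 genes of highest mean CPM, and for each member the 3 quantified genes nearest in log2(CPM + 1). Members and lists were chosen with earlier results of these data known.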

Additional observations from a re-analysis of the deposited data

How the results depend on the processing

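Of 49 recomputed values, 44 kept their direction and their side of the threshold, or stayed within the spread between libraries, and 0 reversed. With 2 libraries, a level or cluster ratio from 1 library or from pooled counts always lies within the SD around the mean. Those agreements were therefore fixed in advance. The cluster ratio on either strand could not change either, because the members had 0 counts on the opposite strand. Mean levels could hardly move with TMM or DESeq2 size factors, which shift the sizes of the 2 libraries in opposite directions. Mir29a stood at 88.9 CPM with TMM and 88.7 CPM with DESeq2 size factors, against 88.8 CPM. Agreement of those levels therefore says little. Counted on either strand, Mir29c stood at 125 CPM, with the same Mir29c counts over larger totals. The log2 ratio of Mir29a was 0.24 with DESeq2 size factors (adjusted p = 0.0706) and 0.28 with no filter on low counts (adjusted p = 0.0648), both by the exact test and both past the threshold no longer. Over its alternatives the adjusted p ranged from 0.0182 with TMM to 0.0706. The 206 genes called between the libraries became 53 with a difference of at least 1.5-fold required, and 51 of the 117 genes with at least 100 and under 1000 counts in replicate 1, a range chosen after seeing the data. With 1 library left out, the log2 ratio of the clusters ran from -0.70 to -0.37 and the family sum from 214 to 227 CPM. No paired analysis was possible because the labels give 1 group, so no groups share replicate numbers; the clusters were compared within each library. The Mir29b genes had 4 to 15 counts in a library, which leaves their levels and ratios with wide intervals.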

Other observations

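Genes with a mature sequence also annotated in another gene were compared with the rest. Of 87 such genes in both the count tables and the RefSeq table, 57 had a count, 44 were quantified and the median level was 4.40 CPM. Of the 829 genes with no such sequence, 575 had a count, 301 were quantified and the median was 0.90 CPM. These medians include genes at 0, and the pairs Mir26a-1 (4.41 CPM) with Mir26a-2 (34.0 CPM) and Mir19b-1 (34.8 CPM) with Mir19b-2 (10.03 CPM), chosen after their values were seen, had these levels as means of the libraries. The 87 genes include Mir29b-1 and Mir29b-2. The sets were not matched in any other respect, and whether a shared mature sequence changes the count of a gene was not tested.

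A version number other than that in M21, as for Mir29b-1 and Mir29b-2, was carried by 79 of the identifiers found there, of which 45 were quantified.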
